A study of Mus musculus with 57 samples.

Results

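The voltage-gated sodium and calcium channel genes encode the pore-forming and auxiliary subunits of the channels that fire and read electrical signals in neurons and muscle fibres. All autosomal members of these gene families with curated RefSeq transcripts on mm10 were taken by name, which gave 35 genes of 24963 autosomal genes. They were followed in 3 histone H3 marks by chromatin immunoprecipitation and sequencing (ChIP-Seq): trimethylated lysine 4 (H3K4me3, found at active and poised promoters), acetylated lysine 27 (H3K27ac, found at active promoters and enhancers) and trimethylated lysine 27 (H3K27me3, laid down by Polycomb at silent genes).

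The data were 57 peak lists from brain cortexes and gastrocnemius muscles of PSAPP mice, a model of Alzheimer's disease that carries a mutated human presenilin 1 and a chimeric mouse/human amyloid precursor protein. For each mark there were 9 cortex and 10 gastrocnemius libraries, and 9 of the 10 animals gave both tissues. Every mouse was 13 months old and transgenic, so no non-transgenic control was compared, and all of them ate LabDiet 5001 chow until 6 months of age and then a modified AIN-93 diet at 11.2 kcal per day in single housing. The question put to the data here was how the promoters of the neuronal and the muscle isoforms of these channels differed between the tissues. Sex was not among the labels and was not used.

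A voltage-gated channel is built around a large pore-forming subunit (the Scn genes without a b for sodium, the Cacna1 genes for calcium), which smaller subunits escort to the membrane and tune. Vertebrates keep separate genes for the channels of axons and synapses, of pain-sensing neurons and of skeletal muscle, where the calcium channel acts mainly as the voltage sensor that opens the ryanodine receptor. Several genes of the calcium channel gamma family (Cacng2, Cacng3, Cacng4 and Cacng8) are better known in brain as escorts of AMPA-type glutamate receptors.

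The peaks of each library were compared over the window within 1 kb of the transcription start site (TSS) shared by most curated transcripts of a gene. The level at a TSS was the reads of the overlapping peaks, shared over the window in proportion to the overlap, scaled to 1000000 reads in the autosomal peaks of the library (RPM). A library without a peak was set to 0, although it may hold reads under the caller's threshold. Reads in autosomal peaks ranged from 9.03 to 18.6 M for H3K4me3, from 3.90 to 27.04 M for H3K27ac and from 2.99 to 18.2 M for H3K27me3. The H3K27ac library of cortex replicate 9 had the fewest reads of its mark, and the H3K27me3 library of gastrocnemius replicate 5 had the most of its mark and a peak at 30.5% of all TSSs, against 20.6% to 26.5% in the others. The summed H3K4me3 level over 5 neuronal markers (Snap25, Syt1, Rbfox3, Camk2a, Stmn2) was 130 to 149 RPM in cortex and 30.7 to 39.6 RPM in gastrocnemius, and that over 5 myofibre markers (Acta1, Ckm, Myh4, Mylpf, Tnnt3) was 33.2 to 50.4 RPM in cortex and 81.6 to 115.7 RPM in gastrocnemius. Snap25 had no H3K4me3 peak in any gastrocnemius library, and Ckm, Myh4 and Tnnt3 had none in any cortex library. Single markers went against their tissue at the TSS used. Camk2a had no H3K4me3 there in any cortex library and 14.71 to 20.69 RPM in all 10 of gastrocnemius. That TSS was picked by the count of curated transcripts and need not be the start used in neurons. The values therefore do not show that Camk2a lacked H3K4me3 in cortex at every start. Mylpf had 33.2 to 50.4 RPM in cortex and 21.25 to 31.5 RPM in gastrocnemius. Acta1 had a peak in 1 of 9 cortex libraries, so that Mylpf gave nearly all of the myofibre sum in cortex. Markers of other cells also moved with the tissue: median H3K4me3 sums in cortex and gastrocnemius were 31.0 and 2.62 RPM over 3 oligodendrocyte, 36.4 and 11.02 RPM over 3 astrocyte, 13.1 and 3.25 RPM over 3 microglial, 0 and 15.6 RPM over 2 satellite cell, 0 and 28.4 RPM over 3 Schwann cell, 13.5 and 31.95 RPM over 3 fibroblast, 36.9 and 54.4 RPM over 3 endothelial, and 7.96 and 14.1 RPM over 2 smooth muscle genes. The part that the mixture of cell types had in the results was not tested. In whole tissue, a mark on fewer nuclei and a lower mark in each nucleus cannot be told apart. Deposited names called the gastrocnemius reads uniquely mapped and did not say so for cortex, so a difference in read filtering and the tissue cannot be told apart either.

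The promoter sequences of 5 genes are shown because the results turn on them: 3 muscle isoforms, whose active marks were higher in gastrocnemius, and 2 neuronal isoforms, whose active marks were higher in cortex. Each line gives the 250 bases before the TSS as in RefSeq (mm10 primary assembly, GRCm38.p6), 5′ to 3′ on the strand of the gene, with matches to the E box CANNTG, the site family bound by myogenic and neurogenic basic helix-loop-helix factors, in capitals.
Scn4a (chr11:106349391-106349640, minus strand): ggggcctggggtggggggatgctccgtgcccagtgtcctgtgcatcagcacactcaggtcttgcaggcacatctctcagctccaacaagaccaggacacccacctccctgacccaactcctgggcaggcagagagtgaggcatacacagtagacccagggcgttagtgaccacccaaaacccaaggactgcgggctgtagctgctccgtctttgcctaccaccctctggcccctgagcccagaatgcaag
Cacna1s (chr1:136052561-136052810, plus strand): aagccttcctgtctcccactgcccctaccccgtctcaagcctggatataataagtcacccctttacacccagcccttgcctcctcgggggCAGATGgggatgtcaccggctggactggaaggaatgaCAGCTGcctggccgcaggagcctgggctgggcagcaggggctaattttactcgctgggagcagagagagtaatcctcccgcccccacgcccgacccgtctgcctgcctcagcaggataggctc
Cacng6 (chr7:3424412-3424661, plus strand): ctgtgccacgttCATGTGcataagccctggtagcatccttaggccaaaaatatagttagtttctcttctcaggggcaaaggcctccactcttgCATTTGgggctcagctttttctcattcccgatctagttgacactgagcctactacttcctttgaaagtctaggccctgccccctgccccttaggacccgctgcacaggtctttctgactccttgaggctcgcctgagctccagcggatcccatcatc
Scn8a (chr15:100870395-100870644, plus strand): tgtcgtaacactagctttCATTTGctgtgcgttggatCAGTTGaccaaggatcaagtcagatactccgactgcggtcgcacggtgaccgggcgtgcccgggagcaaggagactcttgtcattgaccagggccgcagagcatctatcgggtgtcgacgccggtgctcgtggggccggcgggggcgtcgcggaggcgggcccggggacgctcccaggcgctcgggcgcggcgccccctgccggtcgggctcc
Cacng2 (chr15:78119281-78119530, minus strand): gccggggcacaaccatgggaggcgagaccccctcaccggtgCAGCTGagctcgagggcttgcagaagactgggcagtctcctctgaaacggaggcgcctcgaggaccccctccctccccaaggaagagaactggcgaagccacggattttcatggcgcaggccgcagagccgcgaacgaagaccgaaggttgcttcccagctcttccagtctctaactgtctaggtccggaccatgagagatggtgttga

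The Cacna1s promoter held the E boxes CAGATG at -160 to -155 and CAGCTG at -123 to -118 from the TSS, and the Cacng2 promoter also held CAGCTG, at -209 to -204. No E box lay in the 250 bases before the curated Scn4a TSS, where H3K4me3 in muscle was weak (median 1.315 RPM). At a start predicted by RefSeq 16.2 kb upstream the muscle median was 20.95 RPM, and the sequence before that start is not shown. An E box on either strand was present in 66.1% of 31396 autosomal RefSeq promoters of the same length. None of these 5 windows held TATAAA (12.4% of promoters), GGACAG (18.8%), TTCAGCACC (0.303%, which with GGACAG makes up the RE1 site bound by the neuronal repressor REST) or a MEF2 box (3.24%). Only the E box was found in these windows, so matches of different motifs could not overlap. The promoters differed in composition: Scn8a had a GC content of 68.0% with 30 CpGs and an observed over expected CpG ratio of 1.05, whereas Scn4a had a GC content of 61.6% with 4 CpGs and a ratio of 0.171, and Cacng6 52.8%, 5 CpGs and 0.300. Cacna1s (0.375) and Cacng2 (0.666) lay between. Other members went the other way, such as the neuronal isoform Scn2b with a ratio of 0.124 and the muscle isoform Cacnb1 with 0.780. Over all promoters the ratio had a median of 0.379 (quartiles 0.169 and 0.730). RefSeq promoter entries matched 27 of the 35 genes, those missing being Scn3a, Scn3b, Cacna1a, Cacna1g, Cacna1h, Cacna2d4, Cacng1 and Cacng4.

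Of the 19 neuronal isoforms, 19 had an H3K4me3 peak and 19 an H3K27ac peak at the TSS in every cortex library, while in gastrocnemius 9 had H3K4me3 and 5 had H3K27ac in every library. Of all 24963 genes, 58.3% had H3K4me3 and 59.0% H3K27ac in every cortex library, and 56.6% and 57.2% in every gastrocnemius library. Of the 5 muscle isoforms, 2 had H3K4me3 and 3 had H3K27ac in every cortex library, and 4 and 5 in every gastrocnemius library. Cacnb1, the subunit beside the muscle pore, had both active marks in every library of both tissues. Over all 35 genes, 17 had H3K4me3, 14 had H3K27ac and 10 had H3K27me3 in every library of both tissues, against 53.9%, 52.1% and 8.07% of 24963 genes. Scn4a and Cacng1, which serve skeletal muscle, had neither active mark at the TSS in any cortex library and carried H3K27me3 there in 9 and 6 of 9 libraries. The plot of peak calls gives the count for each gene.

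**Figure D1:**
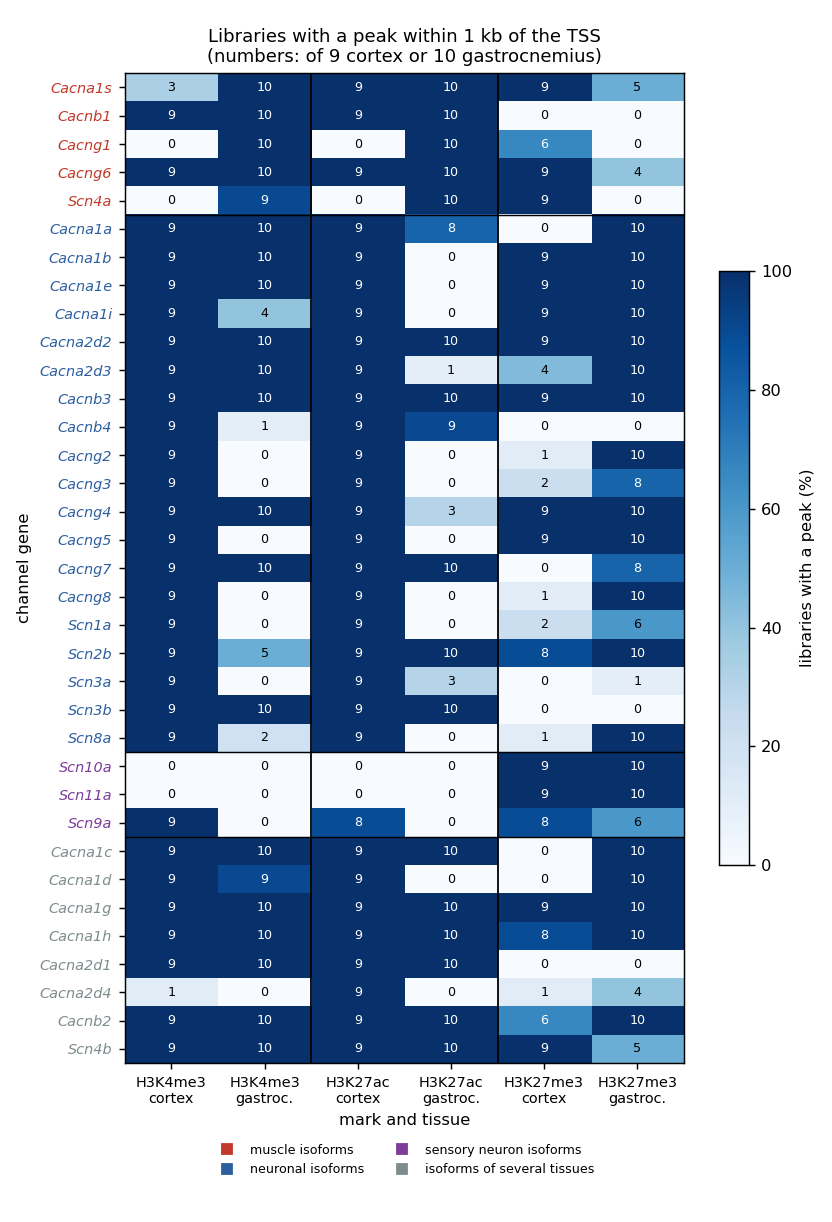
Number of libraries with a peak within 1 kb of the TSS for each channel gene (rows, by role) in each mark and tissue (columns), of 9 cortex or 10 gastrocnemius libraries, with the shade giving the percentage of libraries. The neuronal isoforms have 9 of 9 in both cortex columns of H3K4me3 and H3K27ac, and Scn10a and Scn11a have peaks in the H3K27me3 columns alone.

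H3K4me3 was higher in cortex at the neuronal isoforms but 1, and higher in gastrocnemius at the muscle isoforms but 1. By the read test (the edgeR quasi-likelihood test on reads in the window, Benjamini-Hochberg adjusted over 16214 windows, false discovery rate under 0.1), 25 of 32 tested members were higher in cortex and 5 in gastrocnemius, against 59.7% and 16.0% of all tested windows. Among the neuronal isoforms 18 of 19 were higher in cortex and none in gastrocnemius, and among the muscle isoforms 1 was higher in cortex and 4 in gastrocnemius. The median log2 difference, cortex over gastrocnemius, was 1.51 over the members tested and 0.34 over all windows. With TMM normalization, which centres the windows at 0.04, the members' median was 1.198, the calls were 25 and 6, and 32.1% and 27.1% of all windows were called. Changes in the active marks are therefore to be read against a shift of 0.34 for H3K4me3 and 0.31 for H3K27ac.

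Cacng3, an AMPA receptor escort, had 26.5 to 36.5 RPM of H3K4me3 in cortex (median 33.3) and no peak in any gastrocnemius library. Cacng2 (stargazin), the best studied of these escorts, had 28.2 to 34.1 RPM (median 33.3), again with no peak in muscle. Cacng8 spanned 9.32 to 22.4 RPM (median 16.2) in cortex. The tissues did not overlap at any of these, and no fold is given since muscle was at 0 throughout.

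Scn1a, the sodium channel pore of fast-spiking inhibitory neurons, had 10.7 to 21.0 RPM of H3K4me3 in cortex (median 15.6) and no peak in muscle. Scn3a, the pore gene most used in the developing brain, had 10.4 to 15.7 RPM (median 13.4), and Scn8a, the pore at nodes and axon initial segments, 23.5 to 45.3 RPM (median 33.5). Scn8a differed from the first pair in that 2 of 10 muscle libraries (replicates 2 and 3) held a small peak, of at most 3.52 RPM. Peaks at Scn1a, Scn3a, Cacng2, Cacng3, Cacng5, Cacng8 and Scn9a were called in 9 of 9 cortex and 0 of 10 gastrocnemius libraries (two-sided Fisher's exact test, p = 1.08e-05, the smallest this design allows, adjusted p = 0.000227). Scn8a (9 against 2, adjusted p = 0.0099) and Cacnb4 (9 against 1, adjusted p = 0.00194) brought the peak calls more frequent in cortex to 9 by the same Fisher's exact test, against 5.03% of 16709 windows, and 3 members had peaks more often in gastrocnemius, against 3.37%. A peak in every cortex and no gastrocnemius library was seen at 2.94% of these windows, and the reverse at 1.84%. The call of Scn8a was not made without the libraries whose deposited names carry an S number (Fisher's exact adjusted p = 0.234).

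The pore genes of presynaptic calcium channels kept H3K4me3 in muscle at a lower level. Cacna1e, of the R-type channel, had the steepest difference among them: 32.2 to 48.3 RPM in cortex (median 41.8) against 2.28 to 5.92 RPM in gastrocnemius (median 4.16), a log2 difference of 3.33 ± 0.15 (SE, edgeR adjusted p = 3.32e-14). Cacna1a, of the P/Q-type channel, differed by 1.502 ± 0.11 (26.9 to 46.9 RPM against 9.35 to 15.2 RPM, edgeR adjusted p = 1.6e-10), and Cacna1b, of the N-type channel, by 1.74 ± 0.15 (edgeR adjusted p = 1.51e-09). At all 3 genes every cortex library stood above every muscle library. Levels that did not overlap, higher in cortex, were seen at 25 members and the reverse at 3, against 17.3% and 6.39% of 16709 windows.

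At Cacna2d1 and Cacna2d2, which encode the α2δ subunits that bind gabapentin, the H3K4me3 ranges of the tissues overlapped. Cacna2d1 had 25.4 to 41.7 RPM in cortex and 23.6 to 42.9 RPM in gastrocnemius (log2 difference -0.02 ± 0.12, edgeR adjusted p = 0.908), and with TMM it was lower in cortex (-0.32, edgeR adjusted p = 0.0179), but higher over the whole peak (0.65, edgeR adjusted p = 1.24e-08). Cacna2d2 differed by 0.21 ± 0.18 (edgeR adjusted p = 0.305), and by -0.09 with TMM. Their relative Cacna2d3 differed by 1.88 ± 0.11 (edgeR adjusted p = 1.78e-12). Cacna2d4, best known in retina, had a small peak in 1 cortex library at its main TSS.

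**Figure D2:**
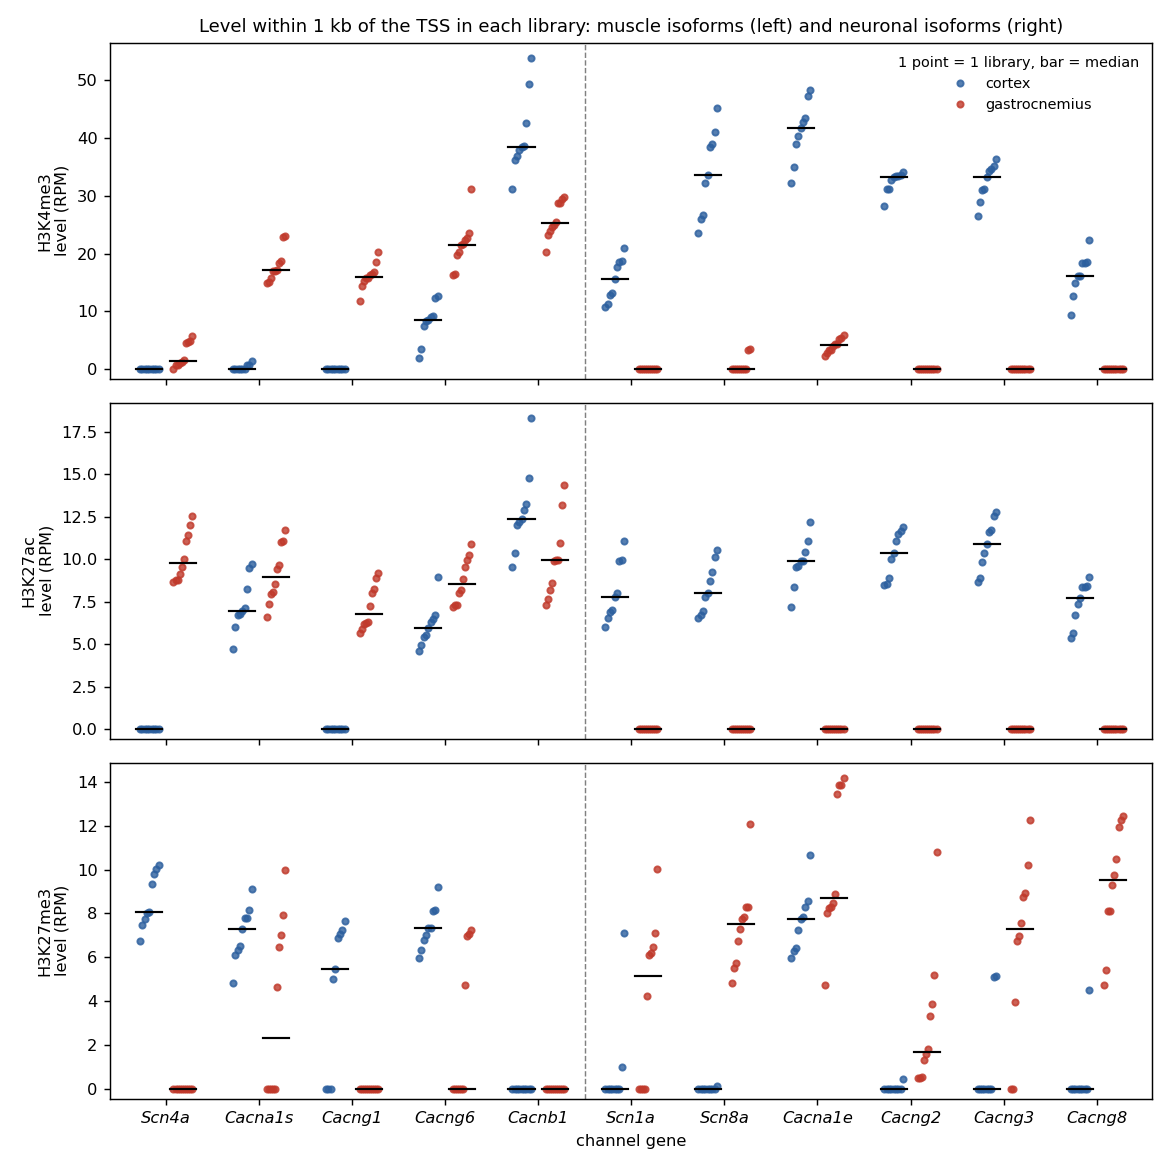
Level within 1 kb of the TSS (RPM, vertical axis) in each library for 5 muscle isoforms (left of the dashed line) and 6 neuronal isoforms (right), 1 panel for each mark, with cortex (n = 9) in blue, gastrocnemius (n = 10) in red, 1 point for each library and a bar at the median. Cacng2, Cacng3 and Cacng8 sit at 0 in gastrocnemius in both upper panels, and Scn4a and Cacng1 do so in cortex.

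Among the muscle isoforms, Cacng1, the gamma subunit of the skeletal muscle calcium channel, had 11.8 to 20.3 RPM of H3K4me3 in gastrocnemius (median 16.0) and no peak in cortex (10 against 0 libraries, Fisher's exact adjusted p = 0.000227). Cacna1s, the pore and voltage sensor of that channel, had 14.8 to 23.1 RPM in gastrocnemius (median 17.1) and at most 1.39 RPM in cortex, where 3 of 9 libraries had a peak. The tissues did not overlap at either gene. The read test called Cacna1s (edgeR adjusted p = 9.23e-09). Its peak frequency (Fisher's exact adjusted p = 0.0377) was no longer called when any 1 of the 10 gastrocnemius libraries was left out (adjusted p = 0.105 to 0.108).

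Cacng6, a further muscle gamma subunit, carried H3K4me3 in both tissues, at 1.92 to 12.6 RPM in cortex (median 8.44) and 16.2 to 31.1 RPM in gastrocnemius (median 21.6). Every muscle library was above every cortex library, with a log2 difference of -1.41 ± 0.24 (edgeR adjusted p = 2.9e-05). Cacnb1, the cytoplasmic subunit of the muscle channel, which is also transcribed in brain, ran the other way, at 31.3 to 53.9 RPM in cortex (median 38.4) and 20.3 to 29.8 RPM in gastrocnemius (median 25.3), a difference of 0.65 ± 0.10 (edgeR adjusted p = 9.14e-06) that became -0.17 when whole peaks were counted (edgeR adjusted p = 0.427).

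Scn4a, the sodium channel pore of skeletal muscle, was the weakest of the muscle isoforms at its curated TSS, with 0 to 5.76 RPM of H3K4me3 in gastrocnemius (median 1.31, peaks in 9 of 10 libraries) and no peak in cortex (Fisher's exact adjusted p = 0.00194). The read test called it (edgeR adjusted p = 6.99e-05), but not when libraries without a peak were given their library's lowest peak density in place of 0 (edgeR adjusted p = 0.71). Its strong H3K4me3 peak in muscle lay upstream, as described with the region map.

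H3K27ac followed the same division with fewer muscle peaks at neuronal genes. By the read test 28 of 33 tested members were higher in cortex and 5 in gastrocnemius, against 49.9% and 12.9% of 17864 windows, and with TMM 26 and 5 members against 31.5% and 24.7% of windows. The members' median log2 difference was 1.45 against 0.31 over all windows. All 19 neuronal isoforms were called higher in cortex, and of the muscle isoforms 1 was higher in cortex and 4 in gastrocnemius. Peaks were more frequent in cortex at 15 members and in gastrocnemius at 2 by Fisher's exact test, against 9.22% and 4.26% of 18566 windows.

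Cacng3 had 8.67 to 12.8 RPM of H3K27ac in cortex (median 10.9) and Cacng2 8.49 to 11.9 RPM (median 10.3), with no peak in muscle at either. Cacna1e (7.18 to 12.2 RPM, median 9.87) and Cacna1i, the T-type pore of thalamic and cortical neurons (6.12 to 10.4 RPM, median 8.77), also had H3K27ac in cortex alone, although Cacna1e kept an H3K4me3 peak in all 10 muscle libraries and Cacna1i in 4. Each was called in 9 of 9 against 0 of 10 libraries (Fisher's exact adjusted p = 0.000186). The same was true of Cacna1b, Cacna1d, Cacng5, Cacng8, Scn1a, Scn8a and Cacna2d4, so 11 members had H3K27ac in every cortex library and in no muscle library, against 4.22% of windows, and Scn4a and Cacng1 had the reverse, against 1.58%. The ranges of levels did not overlap, higher in cortex, at 24 members (13.9% of windows) and, higher in gastrocnemius, at 3 (4.21%). At its most 5′ curated TSS, Cacna1d was not called (log2 difference -0.82, edgeR adjusted p = 0.658).

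In muscle, Scn4a carried 8.67 to 12.5 RPM of H3K27ac (median 9.77) and Cacng1 5.63 to 9.18 RPM (median 6.74), with no cortex peak at either (Fisher's exact adjusted p = 0.000186 for each). Cacna1s, by contrast, had H3K27ac at its TSS in every library of both tissues, at 4.71 to 9.71 RPM in cortex (median 6.94) and 6.58 to 11.7 RPM in gastrocnemius (median 8.97), a difference of -0.34 ± 0.13 (edgeR adjusted p = 0.0362) with overlapping ranges. Cacng6 differed by -0.55 ± 0.11 (edgeR adjusted p = 0.000438), again with overlap. Cacnb1 was higher in cortex (9.54 to 18.3 RPM against 7.31 to 14.4 RPM, 0.35 ± 0.14, edgeR adjusted p = 0.0366), a call lost with TMM (0.08, edgeR adjusted p = 0.461).

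Scn4b, a sodium channel beta subunit found in brain, heart and muscle, was the one member outside the muscle list with more of both active marks in gastrocnemius. Its H3K27ac lay at 5.37 to 8.25 RPM in cortex (median 6.31) and 8.27 to 14.2 RPM in gastrocnemius (median 10.4), without overlap (-0.67 ± 0.12, edgeR adjusted p = 7.88e-05). Its H3K4me3 was 15.8 to 30.4 RPM in cortex against 20.7 to 33.6 RPM (-0.29 ± 0.12, edgeR adjusted p = 0.0377, and 0.215 without the libraries whose deposited names carry an S number). Scn2b, the beta subunit gene 20.8 kb away, went the other way, with H3K27ac at 8.04 to 10.99 RPM in cortex and 2.36 to 4.51 RPM in gastrocnemius (1.24 ± 0.12, edgeR adjusted p = 1.49e-08).

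**Figure D3:**
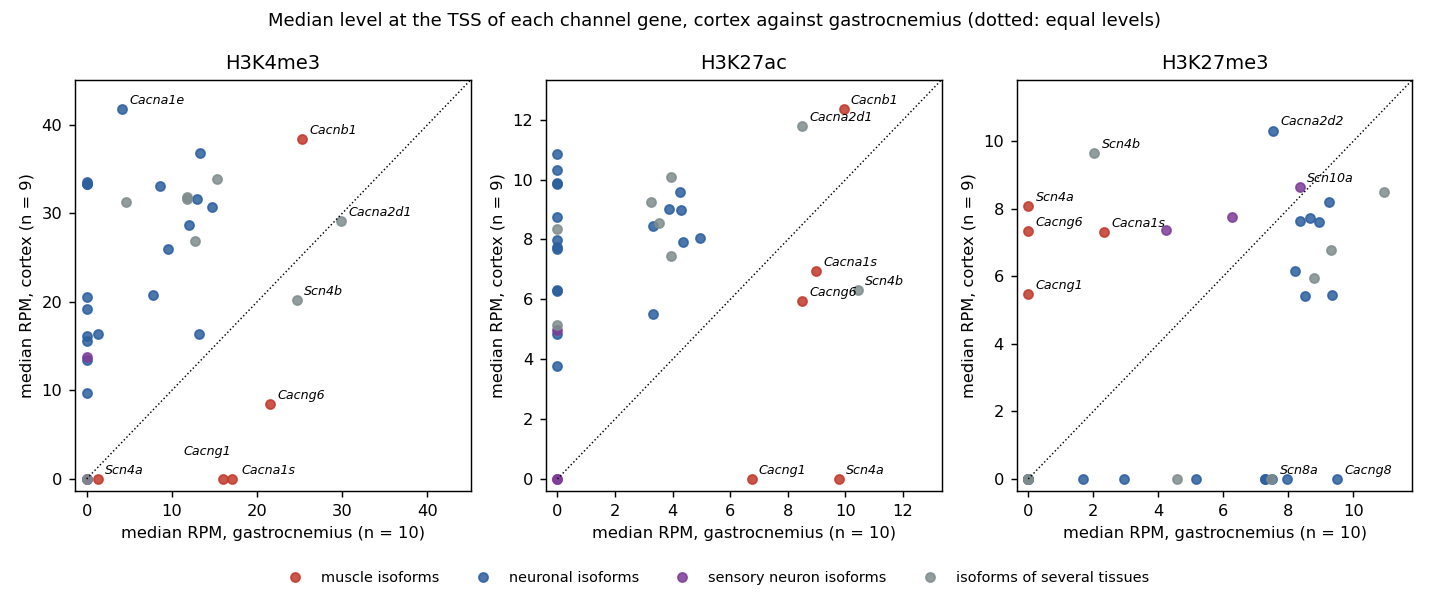
Median level at the TSS of each of the 35 channel genes (RPM, 1 point for each gene, coloured by role) in gastrocnemius (horizontal axis, n = 10 libraries) and cortex (vertical axis, n = 9) for each mark, with a dotted line at equal levels. In H3K4me3 and H3K27ac the blue neuronal isoforms lie above the line and most red muscle isoforms below it, and in H3K27me3 the muscle isoforms Scn4a, Cacna1s, Cacng1 and Cacng6 lie above it.

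H3K27me3 differed the opposite way at part of the genes, with more spread between libraries. The biological coefficient of variation was 123% over all windows, against 19.6% for H3K4me3 and 22.3% for H3K27ac. It was estimated with uncalled libraries at 0, so it takes in whether a peak was called as well as the level. Of 30 members tested, 2 were higher in cortex and 9 in gastrocnemius, and 19 passed neither way, against 19.3% and 24.8% of 8749 windows. With TMM the counts were 2 and 13, against 22.1% and 27.1% of windows. They were 4 and 17 over whole peaks, against 19.7% and 31.4% of windows, and 4 and 16 within 2.5 kb, against 20.3% and 27.4%. Without the libraries with an S number 2 and 14 were called, against 17.9% and 23.0% of windows. The 2 were Scn4a and Cacng1. The 9 were Scn8a, Cacna1a, Cacna1c, Cacna1d, Cacna1h, Cacna1i, Cacng2, Cacng7 and Cacng8, of which 6 are neuronal isoforms and the others (Cacna1c and Cacna1d of L-type channels, Cacna1h of a T-type channel) serve several tissues. With the animal as a block, in which the muscle of the animal without a cortex library adds nothing to the contrast, 4 and 13 members were called, against 21.1% and 23.7% of windows: Scn4b (edgeR adjusted p = 0.0548) and Cacng6 (0.0453) joined those higher in cortex, and Cacna1e (0.0675), Cacna1g (0.0407), Cacna2d3 (0.0756) and Cacng3 (0.0453) those higher in gastrocnemius. Without gastrocnemius replicate 5 the edgeR adjusted p of Cacna1b (0.0937), Cacna1e (0.0222), Cacna1g (0.0212) and Cacnb3 (0.0698) also passed.

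Scn4a carried 6.73 to 10.2 RPM of H3K27me3 in cortex (median 8.08) and had no peak in any muscle library (edgeR adjusted p = 1.7e-07, Fisher's exact adjusted p = 0.000219). It was the one member with H3K27me3 in every cortex and no gastrocnemius library (1.93% of 10848 windows). Cacng1 had a peak in 6 of 9 cortex libraries (0 to 7.66 RPM, median 5.48) and in none of muscle (edgeR adjusted p = 0.0018), a call lost with uncalled libraries at their lowest peak density (edgeR adjusted p = 0.197). Cacna1s had 4.82 to 9.10 RPM in cortex and 0 to 9.97 RPM in gastrocnemius, where 5 of 10 libraries had a peak (edgeR adjusted p = 0.415). Cacng6 was called in 9 of 9 cortex and 4 of 10 muscle libraries (Fisher's exact adjusted p = 0.0498), and lost that call without any 1 of gastrocnemius replicates 2, 3, 4, 6, 7 and 8 (adjusted p = 0.126 to 0.128). Its log2 difference in level was 1.47 (edgeR adjusted p = 0.246), and turned to -0.098 over whole peaks (edgeR adjusted p = 0.961). Cacnb1 had no H3K27me3 peak in any library.

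On the other side, Cacna1c, the L-type pore of heart, smooth muscle and neurons, had 2.21 to 13.0 RPM of H3K27me3 in gastrocnemius (median 7.46) and no cortex peak (edgeR adjusted p = 5.43e-07). Cacna1a had 3.42 to 11.4 RPM (median 7.27) and Cacna1d 1.97 to 11.1 RPM (median 4.57) in gastrocnemius, also without a cortex peak. Each was called in 0 of 9 and 10 of 10 libraries (Fisher's exact adjusted p = 0.000219), which 3.01% of windows did. The read test of Cacna1d was not passed with uncalled libraries at their lowest peak density (edgeR adjusted p = 0.177).

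Scn8a had 4.84 to 12.1 RPM of H3K27me3 in gastrocnemius (median 7.51) and 1 cortex peak (replicate 5) of 0.146 RPM (edgeR adjusted p = 1.6e-07). Cacng8 had 4.74 to 12.4 RPM in gastrocnemius (median 9.52) and 1 cortex peak (replicate 2) of 4.53 RPM (edgeR adjusted p = 0.00387). Cacng2 had peaks in all 10 muscle libraries, at 0.479 to 10.8 RPM (median 1.70), with 1 cortex peak (replicate 7) of 0.447 RPM (edgeR adjusted p = 0.00185). Without that single cortex library each gene had no cortex peak left, so no fold is given. With uncalled libraries at their lowest peak density Cacng2 changed sign (0.34, edgeR adjusted p = 0.631) and Cacng7 (8 of 10 muscle libraries, none of cortex) was not called (edgeR adjusted p = 0.857). The same setting added calls at 6 members, higher in cortex at Scn4b (0.80, edgeR adjusted p = 0.000364) and higher in gastrocnemius at Cacng3 (-0.84, 0.0011), Cacnb2 (-0.65, 0.0159), Cacna2d3 (-0.71, 0.0167), Scn1a (-0.61, 0.0336) and Scn2b (-0.57, 0.0439). Under it 14.2% of 8749 windows were called higher in cortex and 22.0% in gastrocnemius, against 19.3% and 24.8% in the main test.

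The calls for Cacna1i (edgeR adjusted p = 0.0509) and Cacna1h (0.0889) were the weakest, and that for Cacna1h was lost on leaving out any of 13 of the 19 libraries (edgeR adjusted p = 0.1 to 0.142). By Fisher's exact test H3K27me3 peaks were more frequent in cortex at 3 members and in gastrocnemius at 9, against 10.2% and 13.3% of 10848 windows. With the peak required over the TSS itself the counts were 3 and 4, against 9.76% and 12.5% of 9841 windows. Among the 9 more frequent in gastrocnemius within 1 kb of the TSS, Cacna2d3 (adjusted p = 0.0498) and Cacng3 (adjusted p = 0.0981) were less firm. Cacna2d3 lost the call without any 1 of the 10 muscle libraries (Fisher's exact adjusted p = 0.122 to 0.128). Cacng3 lost it without any 1 of 15 of the 19 libraries (0.194 to 0.227), namely all but cortex replicates 1 and 8 and gastrocnemius replicates 4 and 7. Without the libraries with an S number the Fisher's exact calls of Cacna2d3 (adjusted p = 0.242), Cacng3 (0.328), Cacng7 (0.1) and Cacng1 (0.242) were lost. Ranges of H3K27me3 that did not overlap were seen at 1 member higher in cortex and 6 higher in gastrocnemius, against 3.76% and 3.9% of windows.

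Scn10a and Scn11a, pore genes of sensory neurons in the dorsal root ganglia, had no H3K4me3 or H3K27ac peak in any library and an H3K27me3 peak in all 19. Scn10a had 7.17 to 11.5 RPM in cortex and 4.70 to 11.8 RPM in gastrocnemius (0.13 ± 0.15, edgeR adjusted p = 0.543), and Scn11a 7.26 to 10.98 RPM and 2.12 to 10.6 RPM (0.28 ± 0.23, edgeR adjusted p = 0.366). Their TSSs are 106 kb apart on chromosome 9. H3K27me3 peaks covered a median of 69.98% of the Scn10a gene body in cortex and 76.9% in gastrocnemius, and 61.5% and 62.9% of Scn11a. Scn9a, the third pain channel, had H3K4me3 in 9 of 9 cortex libraries (9.67 to 16.8 RPM, median 13.8) and H3K27ac in 8 of 9, with neither in muscle. It also had H3K27me3 in 8 of 9 cortex libraries (median 7.37 RPM, highest 11.3) and in 6 of 10 of gastrocnemius (median 4.23 RPM, highest 8.49), which overlapped (edgeR adjusted p = 0.472).

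Combining the marks within each animal gave 4 classes of TSS: active (H3K4me3 without H3K27me3), bivalent (both), repressed (H3K27me3 without H3K4me3) and neither. In most cortex animals 15 members were active, 14 bivalent, 5 repressed and 1 neither, and in most gastrocnemius animals 6, 13, 10 and 3, with no majority at Cacna1s, Scn2b and Scn4b. By the same rule 49.2% of all 24963 genes were active, 11.1% bivalent, 10.8% repressed and 28.4% neither in cortex, and 46.8%, 11.5%, 10.6% and 28.3% in gastrocnemius. Peaks of both marks in a tissue may lie on different alleles or in different cells. Cacng2, Cacng3, Cacng8, Scn1a and Scn8a were active in most cortex animals and repressed in most gastrocnemius animals, and Scn4a and Cacng1 were the reverse. Cacna1a, Cacna1c, Cacna1d, Cacna2d3 and Cacng7 were active in cortex and bivalent in gastrocnemius. The 8 genes Cacna1b, Cacna1e, Cacna1g, Cacna1h, Cacna2d2, Cacnb2, Cacnb3 and Cacng4 were bivalent in both tissues in most animals, and Cacna2d1, Cacnb1 and Scn3b were active in both.

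The H3K27ac peak over the Scn4a TSS was 29.6 to 71.2 kb wide in the 10 muscle libraries (median 59.7 kb), wider than a median of 99.5% of the peaks of the same library, and H3K27ac covered a median of 100% of the gene body in muscle and 15.6% in cortex. In muscle, H3K4me3 reached 14.2 to 32.9 RPM (median 20.9, peaks in 10 of 10 libraries) within 1 kb of a predicted RefSeq start 16.2 kb upstream, at position 106365559 of chromosome 11, a start looked up after the levels had been seen. At a second predicted start 5.75 kb upstream it was 1.60 to 19.1 RPM. Cortex had no H3K4me3 peak at either, 3.10 to 6.36 RPM of H3K27ac at the farther one, and H3K27me3 at the farther one in 8 of 9 libraries.

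**Figure D4:**
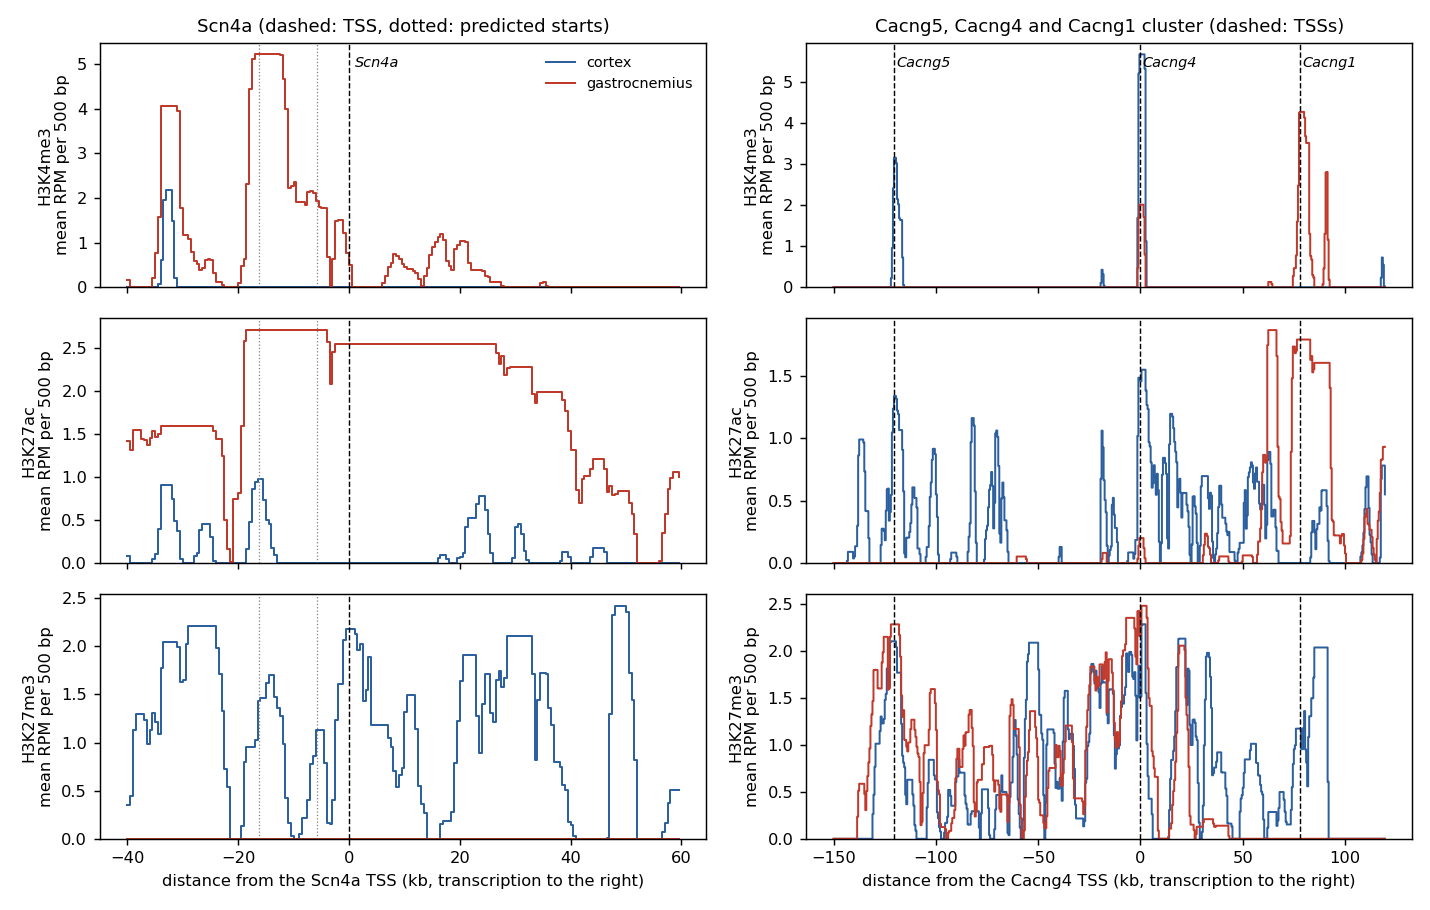
Mean level over the libraries of a tissue (RPM in each 500 bp bin, vertical axis) against the distance from the TSS of Scn4a (left) and Cacng4 (right) in kb, with transcription to the right, 1 row for each mark, cortex in blue and gastrocnemius in red. At Scn4a the highest H3K4me3 in muscle lies over the predicted start 16.2 kb upstream, and no H3K27me3 peak of muscle falls in the window. At right, Cacng1 carries H3K4me3 and H3K27ac in muscle, Cacng5 carries them in cortex, and both tissues have H3K27me3 around Cacng4.

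Cacna1s and Cacnb1 also lay in broad H3K27ac domains. The peak at the Cacna1s TSS was 27.8 to 102 kb wide in muscle (median 33.6 kb, wider than 98.6% of peaks) and 7.4 to 30.8 kb in cortex (median 10.4 kb), and that at Cacnb1 had medians of 38.6 kb in cortex and 37.4 kb in gastrocnemius. H3K4me3 at Cacnb1 spread over a median of 11.2 kb in gastrocnemius and 6.8 kb in cortex. Among the neuronal genes, Cacng8 had the broadest cortex H3K4me3 peak (6.4 to 11.8 kb, median 8.0 kb, wider than 97.7% of peaks), followed by Cacna2d3 (7.4 kb) and Cacng2 (7.2 kb).

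Neighbouring genes of the gamma family differed in their marks. On chromosome 11, Cacng1, Cacng4 and Cacng5 lie in a row with 78.2 kb and 120 kb between their TSSs. Cacng1 had H3K4me3 in muscle alone, Cacng5 in cortex alone (5.65 to 20.5 RPM, median 9.72), and Cacng4 in both (15.8 to 29.7 RPM and 6.12 to 8.87 RPM). On chromosome 7, the TSSs of Cacng7 and Cacng8 are 61.2 kb apart and those of Cacng8 and Cacng6 30.6 kb, and H3K4me3 in muscle was present in 10 of 10 libraries at Cacng7 and Cacng6 and in none at Cacng8. An H3K27me3 peak joined the TSSs of Cacng8 and Cacng6 in 1 muscle library, and no other peak covered a pair of neighbouring members.

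The marks also differed over whole gene bodies. The share of the gene body in H3K27ac peaks was higher in every cortex than every muscle library at 19 members and the reverse at 4 (Cacna1s, Scn4a, Cacng1 and Cacna2d1), against 10.1% and 12.8% of 19436 genes with a peak. Its median over members was 41.1% in cortex and 6.45% in gastrocnemius, where all genes had 39.5% and 45.9%. Cacna1a, 225 kb long, was covered over 64.5% to 90.2% in cortex (median 75.6%) and 10.6% to 19.9% in gastrocnemius, and Scn8a, 175 kb long, over 50.0% to 72.6% and 0% to 1.33%. Cacna2d1 went the other way, at 0.525% to 3.89% in cortex and 8.12% to 21.9% in gastrocnemius, while at its TSS H3K27ac was higher in cortex, with overlapping ranges (0.43 ± 0.15, edgeR adjusted p = 0.0161), a call lost with TMM (0.17, edgeR adjusted p = 0.243).

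H3K27me3 covered more of the gene body in every gastrocnemius library at 16 members and in every cortex library at 3 (Cacna1s, Scn4a and Cacng1), against 7.69% and 5.68% of 12081 genes. Scn8a was covered over 56.3% to 94.3% in gastrocnemius and 0.763% to 6.92% in cortex, and Cacna1a over 38.7% to 88.2% and 0% to 5.78%. Cacna1h had H3K27ac over a median of 91.9% and H3K27me3 over 24.0% of its body in cortex, and 22.0% and 84.4% in gastrocnemius. Cacna1s separated the tissues in the body (30.4% to 66.8% in cortex, 0% to 4.76% in gastrocnemius) where its TSS window did not. For H3K4me3, 11 members were higher in every cortex and 2 in every gastrocnemius library, against 7.19% and 12.0% of 17545 genes. No test was run on these shares, and they rise with how much of the genome a library's peaks cover.

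**Figure D5:**
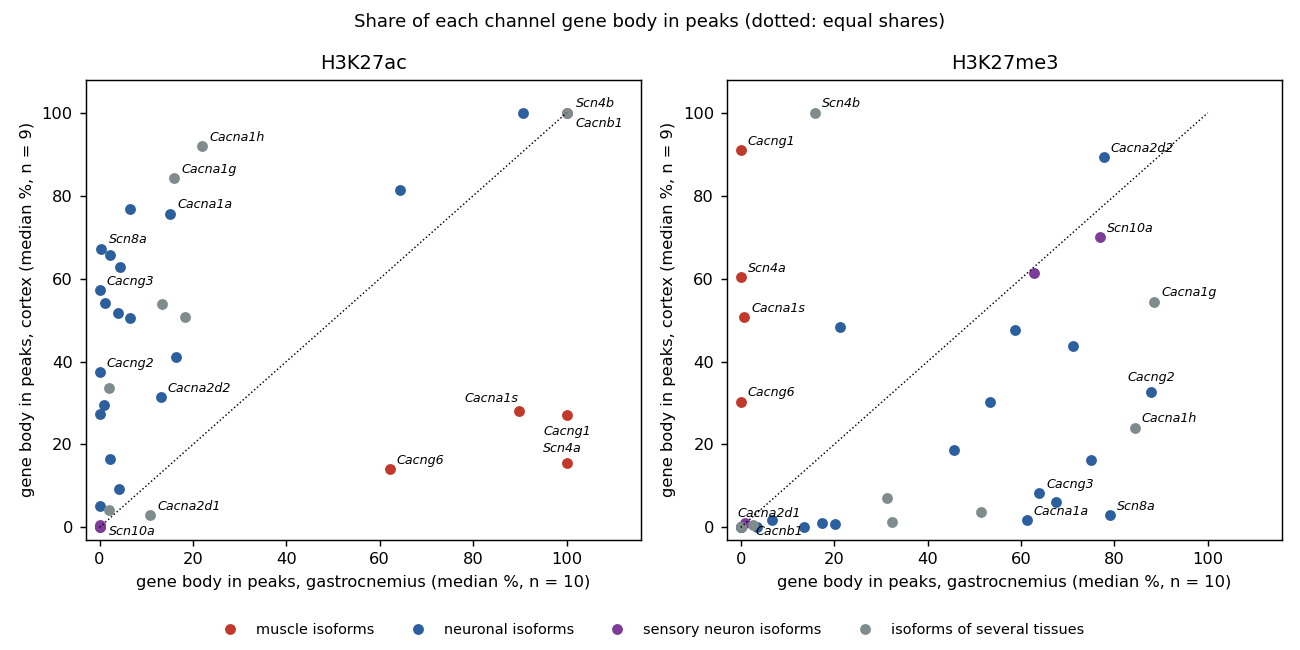
Median share of each channel gene body in H3K27ac (left) and H3K27me3 (right) peaks, in percent, in gastrocnemius (horizontal axis, n = 10 libraries) and cortex (vertical axis, n = 9), 1 point for each gene, coloured by role, with a dotted line at equal shares. Scn8a sits at 67.3% in cortex and 0.421% in gastrocnemius for H3K27ac and at 2.93% and 79.02% for H3K27me3, and Scn4a, Cacna1s and Cacng1 sit on the opposite sides.

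Some of these genes have more than 1 curated start, and the examples given were chosen after their values had been seen. Cacnb4, the cytoplasmic subunit of neuronal channels, had H3K4me3 in 1 of 10 muscle libraries at its main TSS, but in all 10 at a start 117 kb upstream (14.01 to 21.9 RPM, against 36.8 to 64.6 RPM in cortex), where H3K27me3 was also present in 10 of 10 muscle and 0 of 9 cortex libraries. Cacna2d4, with H3K4me3 in 1 of 19 libraries at its main TSS but H3K27ac in 9 of 9 of cortex there, had 38.8 to 50.5 RPM of H3K4me3 in cortex and 3.65 to 5.96 RPM in gastrocnemius at a start 94.2 kb downstream. Cacnb2, a subunit of heart and brain channels, had a start 219.8 kb downstream with H3K27ac in 10 of 10 muscle and 0 of 9 cortex libraries (median 3.11 RPM), while its main TSS had more in cortex. Scn8a kept H3K27ac in all 9 cortex libraries (3.15 to 7.69 RPM) and H3K27me3 in all 10 muscle libraries at a start 65.6 kb downstream, without H3K4me3 in either tissue.

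Of 23 genes for anchors, regulators and other partners of the channels, H3K4me3 was higher in cortex at 16 and in gastrocnemius at 6, and H3K27ac at 16 and 4, by the same edgeR tests. For H3K27me3, 20 of these genes were tested, and 3 were higher in cortex and 10 in gastrocnemius. Of all windows tested, 59.7% and 16.0%, 49.9% and 12.9%, and 19.3% and 24.8% were called in those directions. Ryr1, the calcium release channel that Cacna1s opens, had a median of 17.03 RPM of H3K4me3 in gastrocnemius and 3.22 RPM in cortex, Stac3, an adaptor of that pair, 16.04 RPM and no cortex peak, and Jph2, which ties the membranes together, 30.2 RPM and no cortex peak. Jph2 had H3K27me3 in 9 of 9 cortex libraries and none of muscle. Jph1, the paralog of Jph2, went the other way, with 42.79 to 73.8 RPM of H3K4me3 in cortex and 15.21 to 31.95 RPM in gastrocnemius (1.06 ± 0.14, edgeR adjusted p = 6.71e-07), and Stac3 had H3K27ac in all 19 libraries with no call between the tissues (edgeR adjusted p = 0.128). Fgf14, an intracellular regulator of neuronal sodium channels, had a median of 49.2 RPM of H3K4me3 in cortex and no muscle peak, and the sodium leak channel genes Nalcn, Unc79 and Unc80 had H3K27me3 in 7, 9 and 9 of 10 muscle libraries and in none of cortex.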

How the data were processed

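Paired reads of each library were aligned by the authors to mm10 with BWA, reads of low mapping quality and duplicates were removed, and peaks were called per library with epic2 (an input library is not stated) at a false discovery rate under 0.05, as their methods state. The deposited peak lists gave a count of reads in each peak, and a score for each peak. The deposited score was used only to leave out the weakest peaks in an alternative. Levels are signal shared evenly within a peak, since the deposited counts do not say where in a peak reads fell. Grouping followed the tissue and mark in the labels, and animals were matched across tissues by codes in the deposited names. The genes, role lists and tests were chosen with earlier results of these data known.

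Shared reads were rounded and tested in 1 window per gene by edgeR 4.0.16 (R 4.3.3), with reads in autosomal peaks as library size, for windows with a peak in at least 3 libraries of a tissue. Peak frequencies were tested by a two-sided Fisher's exact test (SciPy 1.17.1). All p-values were Benjamini-Hochberg adjusted over all windows tested, and the threshold was 0.1. Alternatives included TMM and DESeq2 1.42.0, other windows and TSSs, and leaving out each library. Tested on simulated counts for 100 windows changed 2-fold, the read test recovered 100 for H3K4me3, 87 for H3K27ac and 26 for H3K27me3. Of 100 changed 1.5-fold in the same runs it recovered 72, 60 and 6, and among the unchanged windows of those runs it made 17, 8 and 6 false calls. The simulated counts were drawn without a peak caller, whereas in the data uncalled libraries were set to 0. These recoveries therefore need not hold for the channel genes. Genes of the X chromosome (1126) were not used. Genes described in full were the muscle isoforms and, for each mark, up to 4 called genes in each direction with the largest differences and no overlap. Other genes named served as examples. The same animal gave both tissues in 9 cases, and the deviations of its libraries correlated at most 0.06 across tissues (0 of 9 pairs over 0.1 in any mark).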

Additional observations from a re-analysis of the deposited data

Results flagged for a closer look

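Single libraries lay far from the rest of their tissue in 24 of 163 sets of levels (14.7%), judged by the gap to the nearest other library relative to the range. The nominal chance rate of about 1 in 20 was not worked out on these data, where uncalled libraries are 0, so the shares cannot be compared. Many of the flagged libraries are single peaks in a tissue otherwise without one. For H3K4me3 these were Cacna2d4 in cortex replicate 8 (1.861 RPM) and Cacnb4 in gastrocnemius replicate 9 (1.843 RPM), and Cacna1s in cortex replicate 2 (1.386 RPM) stood above the few other cortex peaks. For H3K27ac, Cacna2d3 had a single muscle peak in gastrocnemius replicate 9 (1.678 RPM). For H3K27me3, single peaks were found at Scn3a in gastrocnemius replicate 9 (0.7522 RPM), and in cortex at Scn8a in replicate 5 (0.1465 RPM), Cacng2 in replicate 7 (0.4473 RPM), Cacng8 in replicate 2 (4.528 RPM) and Cacna2d4 in replicate 9 (6.324 RPM), while Scn1a reached 7.123 RPM in cortex replicate 9.

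A library without a peak where the others had one was seen for H3K27ac at Scn9a in cortex replicate 9 (0.0 RPM), the H3K27ac library with the fewest reads, and at Cacnb4 in gastrocnemius replicate 1 (0.0 RPM).

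High libraries of H3K4me3 were gastrocnemius replicate 8 at Cacna1h (19.25 RPM), gastrocnemius replicate 7 at Cacng6 (31.13 RPM), and in cortex replicate 7 at Cacnb4 (28.31 RPM), replicate 2 at Cacng5 (20.54 RPM) and replicate 4 at Cacng7 (47.32 RPM), and cortex replicate 5 was low at Cacng2 (28.22 RPM). For H3K27ac, cortex replicate 9 was high at Cacng6 (8.947 RPM), cortex replicate 3 low at Cacna1c (6.443 RPM) and gastrocnemius replicate 8 low at Cacng7 (1.529 RPM). For H3K27me3, gastrocnemius replicate 8 was high at Scn8a (12.09 RPM), gastrocnemius replicate 2 at Cacng2 (10.82 RPM) and cortex replicate 6 at Scn11a (10.98 RPM). What set these libraries apart was not tested.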

How the results depend on the processing

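Of 6009 values recomputed for the channel genes, 5791 kept their direction and their side of the threshold, 106 lost and 97 gained a call, and 15 changed direction. The cause of these changes was not tested. H3K4me3 of Cacna2d2 became -0.086 with TMM and -0.12 with DESeq2 size factors. H3K4me3 of Cacna2d1 became 0.65 over whole peaks, 0.25 within 2.5 kb, and ranged from -0.076 to 0.042 on leaving out each library, with the sign changed without cortex replicates 1, 6 and 9 and gastrocnemius replicates 2 and 7. H3K4me3 of Cacnb1 became -0.17 over whole peaks. H3K27ac of Cacna1d at its most 5′ TSS became -0.82, and its peak frequency -27.78 percentage points. H3K27me3 became 0.34 at Cacng2 with uncalled libraries at their lowest peak density, -0.098 at Cacng6 over whole peaks, and -0.085 at Scn10a without the libraries with an S number.

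The median member level rose with the span counted, to 48.2 RPM within 2.5 kb and 68.18 RPM over whole peaks for H3K4me3 in cortex, 11.71 RPM for both in gastrocnemius, 17.55 and 39.7 RPM for H3K27ac in cortex, 4.287 RPM for both in gastrocnemius, 10.48 and 10.49 RPM for H3K27me3 in cortex, and 15.89 and 34.86 RPM in gastrocnemius. With at least a 2-fold difference, 2 genes had more H3K27ac in gastrocnemius. The H3K27me3 genes higher in cortex were 4 over whole peaks and 4 within 2.5 kb. With a peak required in every library of a tissue 1 gene was higher in cortex, against 18.3% of 4587 windows. Those higher in gastrocnemius were 17 over whole peaks, 16 within 2.5 kb and, without the libraries with an S number, 14. H3K27me3 peaks over the TSS itself were more frequent in gastrocnemius at 4 genes. The genes in neither class in gastrocnemius were 5 with peaks over the TSS itself and 5 without the weakest 25% of peaks.

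With the animal as a block, the H3K27me3 genes higher in cortex were 4 and those higher in gastrocnemius 13, against 21.1% and 23.7% of windows. With the title number as a block, which matches animals across tissues for 4 numbers, those higher in cortex were 5 and those higher in gastrocnemius 10. Of all windows, 19.4% and 21.9% were called in those directions.

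Leaving out each library kept the read test counts at 25 and 5 for H3K4me3 and at 28 and 5 for H3K27ac, while those of H3K27me3 ranged from 2 to 3 in cortex and from 8 to 13 in gastrocnemius. Single libraries set some log2 differences: H3K4me3 of Scn8a went from 5.50 to 6.26 and 6.35 without gastrocnemius replicates 2 and 3, and H3K27ac of Scn3a from 3.29 to 3.88 without gastrocnemius replicate 9. Without gastrocnemius replicate 9 no muscle peak of H3K4me3 was left at Cacnb4 and none of H3K27ac at Cacna2d3. H3K27me3 of Scn1a was called without cortex replicate 9 (edgeR adjusted p = 0.0256), as was that of Cacna2d4 (0.0187). H3K27me3 had the largest spread between libraries of the 3 marks, with uncalled libraries at 0. There the read test recovered 26 of 100 simulated 2-fold changes, which were drawn without a peak caller.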
